A study of Mus musculus with 16 samples.

Results

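The 10 CC chemokine ligands Ccl2, Ccl3, Ccl4, Ccl5, Ccl6, Ccl7, Ccl9, Ccl12, Ccl17 and Ccl22 were followed in pulmonary endothelial cells (ECs) of mice with lipopolysaccharide (LPS) induced lung injury. They are 10 of the 54532 annotated genes and were chosen by name, with the levels of these same libraries known, so that their difference between LPS and saline is described here and not tested. All 10 were found in the gene annotation and all passed the filter on low values in both experiments.

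Bulk RNA-seq was made of lung ECs isolated with magnetic beads 24 h after an intratracheal injection. In the first experiment adult male WT mice (C57/BL6J) received saline (n = 4, the saline group) or LPS at 10 mg/kg (n = 6, the LPS group). In the second, both genotypes received LPS at 2 mg/kg: Fgfr1loxp/loxp mice (n = 3, wt) and Fgfr1i-delta-EC/i-delta-EC mice (n = 3, cko), in which tamoxifen switches on a Cre under the control of the VE-cadherin promoter and so removes the receptor gene Fgfr1 from ECs. Tamoxifen was given to the wt mice too, and the second experiment holds no saline mice. No label ties a library to a named animal, and p-values therefore measure the spread between these libraries. Depth, as reads assigned to genes, was from 13478726 to 18807007 per library in the saline group, from 17840221 to 19043015 in the LPS group, from 15969575 to 17002788 in wt and from 16642177 to 16943522 in cko. Levels are in FPKM, fragments per kilobase of gene scaled to the mapped total, which makes them comparable between genes of different length.

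CC chemokines are small secreted proteins with a pair of adjacent cysteines near the amino end. They bind receptors on leukocytes and draw these cells along a gradient, and ECs of an inflamed vessel both make them and display them to cells in the blood. Ccl2, Ccl7 and Ccl12 are the monocyte chemoattractant proteins (MCPs), whose main receptor is Ccr2. Ccl3 and Ccl4 are the macrophage inflammatory proteins 1, and Ccl3 signals through Ccr1. Ccl5 also binds Ccr1 and attracts T cells, Ccl6 and Ccl9 are mouse ligands of Ccr1, and Ccl17 and Ccl22 are ligands of Ccr4. Macrophages, neutrophils and dendritic cells are also known sources of several of these ligands.

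The genes lie in 3 clusters (GRCm38, chromosome, start and end as annotated). The MCP genes share 67.8 kb of chromosome 11, with Ccl2 at chr11:82035571-82037453, Ccl7 at chr11:82045712-82047525 and Ccl12 at chr11:82101845-82103400. A second stretch of 138.9 kb on the same chromosome holds Ccl5 at chr11:83525778-83530518, Ccl9 at chr11:83572919-83578636, Ccl6 at chr11:83587882-83593087, Ccl3 at chr11:83647844-83649355 and Ccl4 at chr11:83662584-83664683. Ccl22 at chr8:94745590-94751699 and Ccl17 at chr8:94810453-94812036 share 66.4 kb of chromosome 8.

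Promoters from RefSeq (GRCm38.p6, 250 bases before to 50 after the transcript start) were found for 6 of the 10 genes, Ccl3, Ccl6, Ccl9, Ccl12, Ccl17 and Ccl22. The 100 bases before the start are shown for Ccl3, the most abundant ligand after LPS, and for Ccl12, which had a single read in the saline group. Capitals mark the letters TATAAA of a TATA box, which the Ccl12 stretch holds 31 bases before the start. The Ccl3 stretch does not hold these exact letters, but holds the near match tataag close to its end, which was not counted. The RefSeq start of Ccl3, base 83649378, also lies upstream of the gene start annotated with the expression values, base 83649355. Ccl3 lies on the minus strand at chr11:83649379-83649478 and Ccl12 on the plus strand at chr11:82101745-82101844.
Ccl3: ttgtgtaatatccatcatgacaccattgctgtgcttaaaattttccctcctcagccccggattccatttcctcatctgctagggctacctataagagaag
Ccl12: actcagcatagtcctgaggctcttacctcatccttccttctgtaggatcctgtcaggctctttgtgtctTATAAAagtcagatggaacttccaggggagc

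Ccl6 and Ccl9 are neighbours on the minus strand, and the same window is shown for both because it holds a shared run. The stretches are chr11:83593088-83593187 for Ccl6 and chr11:83578637-83578736 for Ccl9, and capitals mark the longest run of identical letters, 13 bases. Among the other 14 pairs of the 6 promoters the longest shared run was between 5 and 9 bases.
Ccl6: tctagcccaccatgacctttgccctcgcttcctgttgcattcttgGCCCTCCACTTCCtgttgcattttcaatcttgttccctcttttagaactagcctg
Ccl9: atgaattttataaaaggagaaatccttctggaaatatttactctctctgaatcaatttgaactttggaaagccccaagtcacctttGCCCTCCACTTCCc

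Motifs of 4 kinds were searched on both strands of the whole promoter windows. TATAAA was in 2 of the 6 member promoters (Ccl9 and Ccl12) and in 13.6% of all 32851 promoters in the table. The AP-1 letters TGANTCA were in 1 of the 6, Ccl9, and in 7.81% of all. The NF-kB motif was in 1 of the 6, again Ccl9, 35 bases before its start on the opposite strand, and in 8.46% of all. The interferon response letters GAAANNGAAA were in 0 of the 6 and in 3.44% of all. These are matches of letters in a short window and were not tested against the expression values.

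After LPS at 10 mg/kg the summed level of the 10 ligands was 27.3 times that of the saline group, 1449 ± 739 FPKM (SD, n = 6) against 53.1 ± 42.7 FPKM (SD, n = 4). Without saline replicate 1, the highest of the saline libraries, the ratio was 44.7. For 9 of the 10 every LPS library lay above every saline library, and the exception was Ccl22. Over all 14893 genes tested, 22.7% had every LPS library above every saline library, and the limma test (adjusted p at or under 0.05 and a log2 fold change of at least 1) called 11.9% higher and 6.79% lower. The ligands were chosen by name with this difference known, so nothing is read from their count against those shares. On the log2(FPKM + 1) scale the median difference over the 10 was 4.31, and over all genes tested the median was 0.01. In bulk RNA, more cells that make a transcript and more transcript per cell cannot be told apart.

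**Figure D1:**
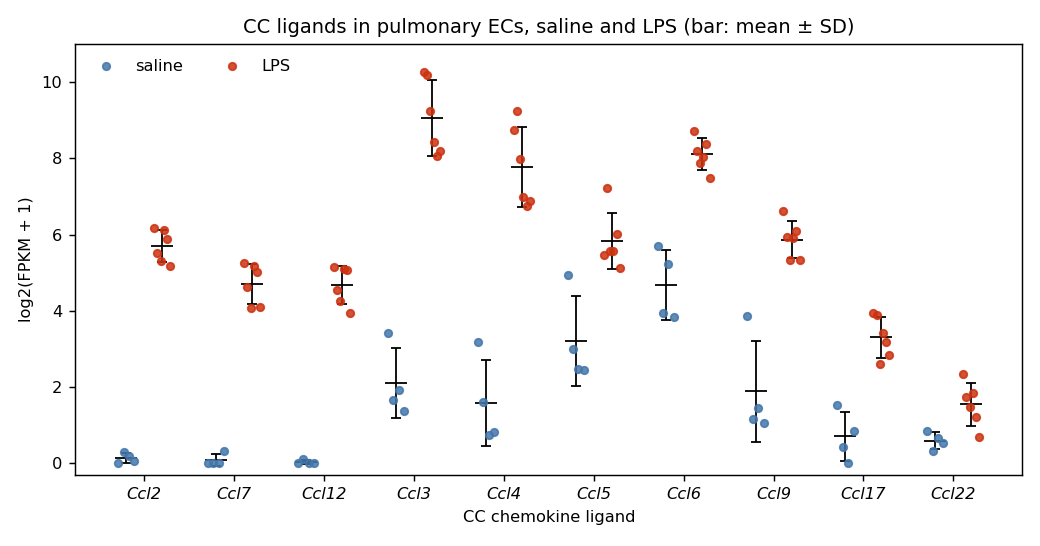
Level of each of the 10 CC ligands as log2(FPKM + 1) in the 4 saline (blue) and 6 LPS (red) libraries, with 1 point per library and black bars for mean ± SD. Red points lie above all blue points for every ligand but Ccl22, and the 3 MCP genes at the left start near 0.

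The MCP genes were close to absent in saline and abundant after LPS. Ccl2, the ligand best known for calling monocytes out of the blood, was at 0, 0.238, 0.148 and 0.045 FPKM in saline replicates 1 to 4. In the 6 LPS libraries Ccl2 was between 35.4 and 71.0 FPKM, with a median of 51.6 FPKM. The saline group gave 10 reads of Ccl2 in all and the LPS group 6439, a ratio of 437 per read of depth (95% exact interval 237 to 911, counting error only). Saline replicate 2 held 6 of the 10 reads, and without it the ratio of mean FPKM was 823 in place of 490.

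Ccl7, which binds several CC receptors, had 4 reads in the saline group, all in replicate 4. Its LPS libraries lay between 16.0 and 37.2 FPKM, with a median of 27.7 FPKM. The ratio per read of depth was 388, with an exact 95% interval from 151 to 1425. Ccl12, a mouse MCP without a simple human counterpart, had 1 read in the saline group, in replicate 2. Its 6 LPS libraries lay between 14.5 and 34.8 FPKM, with a median of 27.5 FPKM, and the ratio was 1013 with an interval from 182 to 40034. For each of the 3 genes the lowest LPS library was far above the highest saline library, by 149 times for Ccl2, 62.9 times for Ccl7 and 172 times for Ccl12. The intervals pool the reads of a group and do not cover the spread between libraries. Without saline replicate 4 for Ccl7, or replicate 2 for Ccl12, every remaining saline library was at 0 and no ratio could be given.

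Inside the LPS group the MCP genes kept close proportions. The level of Ccl7 was between 0.414 and 0.541 of that of Ccl2 in every LPS library, and that of Ccl12 between 0.409 and 0.556. For all 3 genes LPS replicates 1, 4 and 5 were the 3 highest libraries, and replicates 2, 3 and 6 the 3 lowest.

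Ccl3 and Ccl4 had the highest LPS levels beside Ccl6. In saline replicates 1 to 4 Ccl3 was at 9.77, 2.18, 2.78 and 1.59 FPKM, and its LPS libraries lay between 265 and 1237 FPKM with a median of 471 FPKM. Its mean was 4.08 ± 3.82 FPKM (SD, n = 4) and 649 ± 442 FPKM (SD, n = 6), a 159-fold ratio of means, which was 297 without saline replicate 1. Ccl3 alone made up 44.8% of the summed level of the 10 ligands in the LPS group and 7.68% in the saline group. This share differed between libraries, with 1237 of 2389 FPKM in LPS replicate 1 and 265 of 965 FPKM in replicate 5. Ccl3 was above Ccl6 in 5 of the 6 LPS libraries, and in replicate 5 Ccl6 was higher, at 329 FPKM.

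Ccl4 was at 8.02, 2.05, 0.679 and 0.770 FPKM in saline replicates 1 to 4 and between 108 and 605 FPKM after LPS, with a median of 190 FPKM. The ratio of means was 94.9, and 234 without saline replicate 1. Both genes were highest in LPS replicates 1 and 2, next in replicate 3, and lower in replicates 4 to 6, an order unlike that of the MCP genes. The level of Ccl4 stayed between 0.347 and 0.522 of that of Ccl3 in the 6 libraries.

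Ccl5 showed the narrowest gap between the groups among the 9 that did not overlap. It was at 29.9 FPKM in saline replicate 1 and at 7.01, 4.61 and 4.45 FPKM in replicates 2 to 4. In LPS replicates 1 to 6 Ccl5 was at 43.5, 149, 46.7, 46.1, 64.1 and 33.7 FPKM. The lowest LPS library was thus 1.13 times the highest saline library, and replicate 2 alone was above 100 FPKM. The ratio of means was 5.56, and 11.9 without saline replicate 1.

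Ccl6 and Ccl9 were already present in saline. Ccl6 was the most abundant of the 10 there, with 51.2, 14.3, 36.2 and 13.4 FPKM in replicates 1 to 4 and 54.2% of the summed level. Ccl6 made up 51.2 of a sum of 115 FPKM in replicate 1 and 36.2 of 46.7 FPKM in replicate 3. After LPS it lay between 178 and 420 FPKM, with a median of 277 FPKM, and the ratio of means was 9.92. Ccl9 was at 13.6 FPKM in saline replicate 1 and between 1.10 and 1.73 FPKM in the other 3. Its LPS libraries lay between 39.2 and 98.0 FPKM, with a median of 59.3 FPKM and a ratio of means of 13.7, which was 44.6 without saline replicate 1. Ccl9 stood between 0.169 and 0.233 of the level of Ccl6 in the LPS libraries. Ccl6 overlaps the transcript E230016K23Rik on the other strand, which had at most 95 reads in a library of this experiment against at least 474 for Ccl6.

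The Ccr4 ligands were the least abundant of the 10 after LPS. Ccl17 was at 1.91, 0.352, 0 and 0.791 FPKM in saline replicates 1 to 4 and between 5.13 and 14.3 FPKM after LPS, with a median of 8.82 FPKM. Its ratio of means was 12.4, and 24.9 without saline replicate 1. Ccl22 was at 0.813, 0.253, 0.578 and 0.437 FPKM in saline. In LPS replicates 1 to 6 Ccl22 was at 4.09, 2.33, 1.79, 2.57, 1.34 and 0.610 FPKM. LPS replicate 6 thus lay below saline replicate 1, and the ratio of means was 4.08. The proportion of Ccl22 to Ccl17 varied more than those of the other pairs, from 0.0995 to 0.350.

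In the LPS group the order of mean level was Ccl3, Ccl6, Ccl4, Ccl5, Ccl9, Ccl2, Ccl7, Ccl12, Ccl17 and Ccl22. The ranges of neighbours overlapped throughout, except between Ccl12 and Ccl17 and between Ccl17 and Ccl22. Ccl6 in second place was above Ccl4 in 3 of the 6 libraries, and Ccl5 was above Ccl9 in 2 of the 6. In the saline group the order was Ccl6, Ccl5, Ccl9, Ccl3, Ccl4, Ccl17, Ccl22, Ccl2, Ccl7 and Ccl12, and of the neighbouring ranges just those of Ccl22 and Ccl2 did not overlap.

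Single libraries carried much of the spread. Saline replicate 1 was the highest saline library for 7 ligands (Ccl3, Ccl4, Ccl5, Ccl6, Ccl9, Ccl17 and Ccl22) and was at 0 for Ccl2, Ccl7 and Ccl12. Its summed level was 115 FPKM, against 27.7, 46.7 and 22.9 FPKM in replicates 2 to 4. LPS replicate 1 was the highest LPS library for 8 ligands, replicate 2 for Ccl4 and Ccl5, and replicate 6 was the lowest for 6. The summed levels in LPS replicates 1 to 6 were 2389, 2370, 1252, 985, 965 and 733 FPKM. Without saline replicate 1, or without LPS replicate 6, all 10 ligands had every LPS library above every saline library, and the share of all genes was then 29.2% and 24.9%. Leaving out any of the other 8 libraries kept the number at 9, with Ccl22 as the exception.

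**Figure D2:**
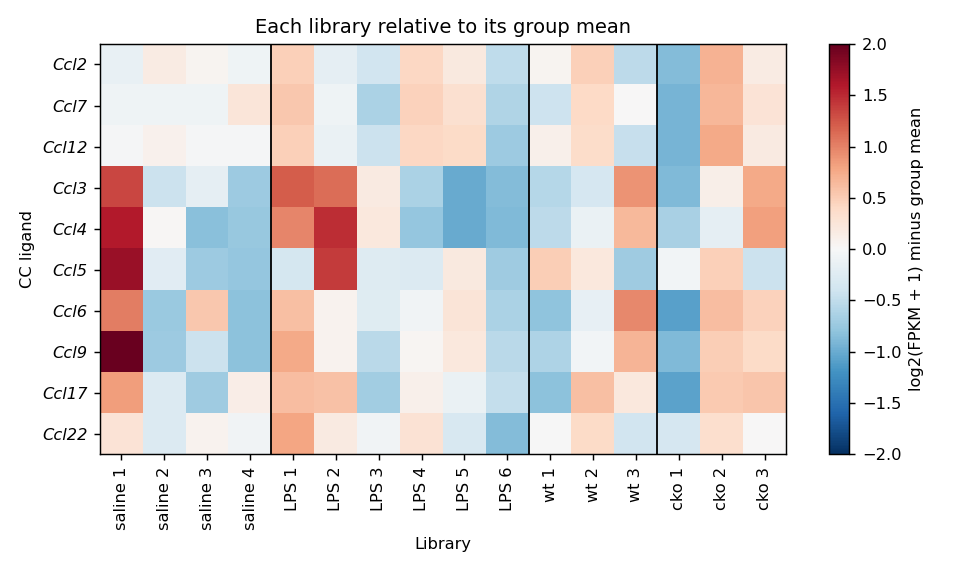
Difference of each library from the mean of its own group, on the log2(FPKM + 1) scale, for the 10 CC ligands (rows) in all 16 libraries (columns, black lines between groups). Saline replicate 1 is high (red) for the 7 ligands from Ccl3 downwards, LPS replicates 1 and 2 are high for Ccl3 and Ccl4, and cko replicate 1 is low (blue) for most ligands.

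Most markers of leukocytes, monocytes and macrophages, and neutrophils were higher after LPS together with the ligands, and those of dendritic cells were divided. Ptprc, the pan-leukocyte antigen CD45 against which the cells were depleted, was at 6.97 ± 3.13 FPKM (SD, n = 4) in saline and rose by 2.19 on the log2 scale (adjusted p = 0.000112 in limma) to 34.6 ± 11.4 FPKM (SD, n = 6). All 6 leukocyte markers tested rose, the most abundant being Coro1a at 447 FPKM after LPS. Of 8 monocyte and macrophage markers 7 rose, among them the receptor gene Csf1r with a log2 fold change of 4.81 (adjusted p = 1.32e-06), and the most abundant was Lyz2 at 2568 FPKM. Of 8 neutrophil markers 6 rose, with S100a9 the most abundant at 1864 FPKM. Of 8 dendritic cell markers 4 passed the filter on low values. Of these 4, 2 rose and the other 2 had a log2 fold change below 0, with a median of 0.63. The summed list was at 0.686 of its saline level, and Clec9a alone made up 33.6 of its mean 44.5 FPKM in saline. The most abundant was Clec9a, at 33.6 FPKM in saline and 15.9 FPKM after LPS (a difference just short of the limit on the fold, adjusted p = 0.00857). The defining gene Flt3 was below the filter, at 0.321 FPKM in saline and 0.150 FPKM after LPS.

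The order of the libraries was shared between the ligands and these lists only in part. LPS replicate 1, with the highest ligand sum, had the highest leukocyte sum (1554 FPKM) and monocyte and macrophage sum (4103 FPKM) and the lowest endothelial sum (1359 FPKM) of the LPS group. LPS replicate 2, with nearly the same ligand sum, had the highest neutrophil sum (6653 FPKM) but the second highest endothelial sum (3194 FPKM) and the third highest monocyte and macrophage sum (3496 FPKM). LPS replicate 5 had the second highest monocyte and macrophage sum (3699 FPKM) and the second lowest ligand sum (965 FPKM). Saline replicate 1 was the highest saline library for the ligands and also for the leukocyte, neutrophil, monocyte and macrophage, CC receptor, endothelial, epithelial and mural lists. In saline replicates 1 to 4 the neutrophil list summed to 1401, 74.0, 311 and 78.2 FPKM, so that replicate 1 lay above LPS replicate 6, at 1290 FPKM. The monocyte and macrophage list summed to 1109, 471, 733 and 372 FPKM in saline and to between 1886 and 4103 FPKM after LPS. Relative to saline, the summed leukocyte list was 7.74 times as high, the neutrophil list 6.51 times (19.7 times without saline replicate 1) and the monocyte and macrophage list 4.65 times. Such a sum can rest on 1 gene, as Lyz2 made up 649 of the mean 671 FPKM of the monocyte and macrophage list in saline. Gene by gene, the median difference on the log2(FPKM + 1) scale was 2.83 for the leukocyte, 2.31 for the neutrophil and 4.03 for the monocyte and macrophage list, beside 4.31 for the ligands. None of the defining markers of these 3 lists was at 0 in all libraries of a group. Their part in the levels of the ligands was not tested.

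**Figure D3:**
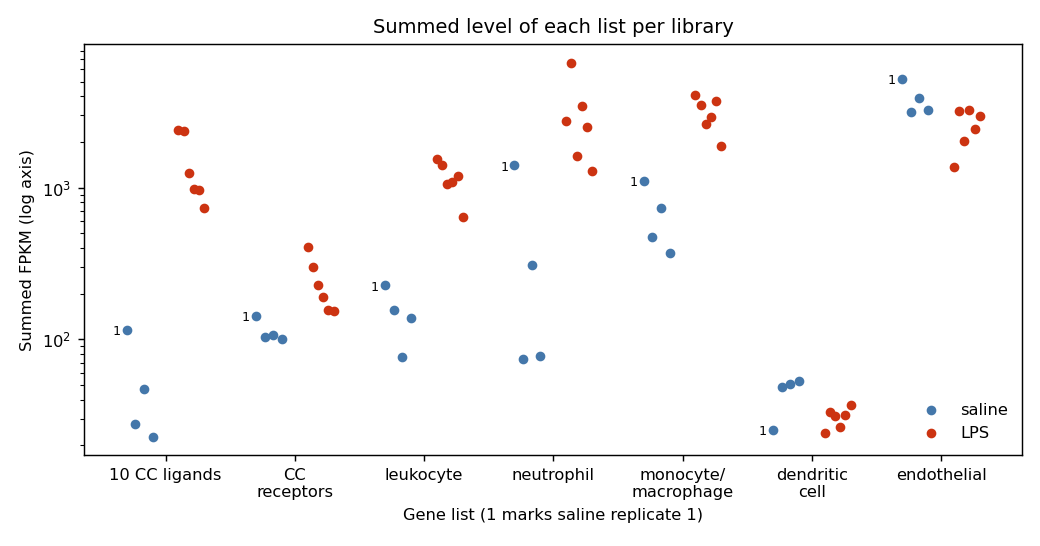
Summed FPKM (log axis) of the 10 CC ligands, the CC receptors and 5 lists of cell type markers, with 1 point per library, blue for saline and red for LPS, with saline replicate 1 marked by its number. Ligand, leukocyte and monocyte/macrophage sums are higher in every LPS library, and saline replicate 1 is the highest saline point for the ligands and for the leukocyte, neutrophil, monocyte/macrophage, CC receptor and endothelial lists.

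The 10 endothelial markers were above 0 in every library of the first experiment, but they did not lead in all of them. In LPS replicate 1 their sum of 1359 FPKM was below those of the leukocyte (1554 FPKM), neutrophil (2726 FPKM) and monocyte and macrophage lists (4103 FPKM). The endothelial sum was also below the monocyte and macrophage sum in LPS replicates 2, 3 and 5 and below the neutrophil sum in LPS replicates 2, 4 and 5. The mean log2(FPKM + 1) per gene was higher for the leukocyte than for the endothelial list in LPS replicates 1, 2, 3 and 5. Cdh5, which encodes VE-cadherin, was at 710 ± 56.0 FPKM (SD, n = 4) in saline and 394 ± 97.6 FPKM (SD, n = 6) after LPS, and Pecam1, which encodes the antigen CD31 used to select the cells, at 400 ± 81.5 and 358 ± 76.8 FPKM. The most abundant endothelial marker was Cldn5 at 1058 FPKM after LPS. Of the 10 endothelial markers 4 fell (Tek, Tie1, Kdr and Flt1) and none rose. Among the remaining lists, with the most abundant gene after LPS in parentheses, 2 of 7 T, NK and B cell markers (Cd79b, 16.7 FPKM), 2 of 7 epithelial markers (Sftpc, 280 FPKM) and 2 of 7 mural markers (Acta2, 31.2 FPKM) fell, and 0 of 6 fibroblast markers (Col3a1, 8.51 FPKM) changed by the call rule. When libraries were scaled on the endothelial list, the median of all genes shifted from 0.01 to 0.60 and none of the endothelial, T, NK and B cell and mural markers was called lower, while 1 mural marker was called higher. The 2 T, NK and B cell calls were also lost with no filter on low values and with the replicate block. With no filter, the replicate block or endothelial scaling 1 epithelial marker was called lower. With a pseudocount of 0.1 FPKM 1 epithelial, 1 T, NK and B cell and 1 fibroblast marker were called lower. Other settings added calls: quantile normalization called 7 endothelial, 5 epithelial and 3 T, NK and B cell markers lower, and limma-voom on recovered reads called 5, 3 and 3 lower and 3 fibroblast markers as well.

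Of 14 CC receptor genes 8 passed the filter, 4 rose (Ccr1, Ccr2, Ccrl2 and Ackr1) and 1 fell (Ackr4), against 11.9% and 6.79% of all genes. Ccr1, the receptor of Ccl3, Ccl5, Ccl6 and Ccl9, was at 18.1, 1.10, 2.87 and 0.538 FPKM in saline replicates 1 to 4 and between 26.7 and 66.1 FPKM after LPS. The groups did not overlap, and the log2 fold change was 3.45 ± 0.58 (SE), with an adjusted p of 0.000597. Without saline replicate 1 it was 4.21 ± 0.32 (adjusted p = 6.98e-06). Ccr2, the MCP receptor, was at 2.34 ± 0.892 FPKM (SD, n = 4) in saline and 15.9 ± 5.40 FPKM (SD, n = 6) after LPS, and rose by 2.32 ± 0.23 on the same scale (SE, adjusted p = 2.13e-05).

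Ccrl2, a chemokine receptor-like protein that presents chemerin and does not signal through G proteins, was the most abundant of the list. It was at 57.6, 40.3, 40.5 and 41.0 FPKM in saline and between 61.9 and 290 FPKM after LPS, with a log2 fold change of 1.36 ± 0.41 and an adjusted p of 0.0167. With quantile normalization its log2 fold change was 0.87 and the call was lost (adjusted p = 0.0768). Like Ccl3 it was highest in LPS replicates 1, 2 and 3, in that order.

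The atypical receptors bind chemokines without classical signalling. Ackr1, which carries chemokines across venular endothelium, rose by 1.54 ± 0.48 (adjusted p = 0.0194), although saline replicate 1 at 8.12 FPKM lay within the LPS range of 4.06 to 11.5 FPKM. Without saline replicate 2 or 3 this call was lost, with adjusted p-values of 0.0585 and 0.0550, and likewise with no filter on low values (0.0546). Ackr4, a scavenger of Ccl19, Ccl21 and Ccl25, fell by 1.74 ± 0.39 (adjusted p = 0.00351), from 5.80 ± 3.38 FPKM to 0.740 ± 0.302 FPKM, with saline replicate 1 at 0.829 FPKM inside the LPS range. Ackr2, the scavenger of most inflammatory CC ligands and the most abundant receptor not called, was at 40.7 ± 6.69 FPKM in saline and 29.6 ± 8.99 FPKM after LPS (log2 fold change -0.50 ± 0.24, adjusted p = 0.104), and its direction turned when libraries were scaled on the endothelial list (0.26). Ccr4, the receptor of Ccl17 and Ccl22, was below the filter in both groups, with 15 reads in the 4 saline and 14 reads in the 6 LPS libraries.

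**Figure D4:**
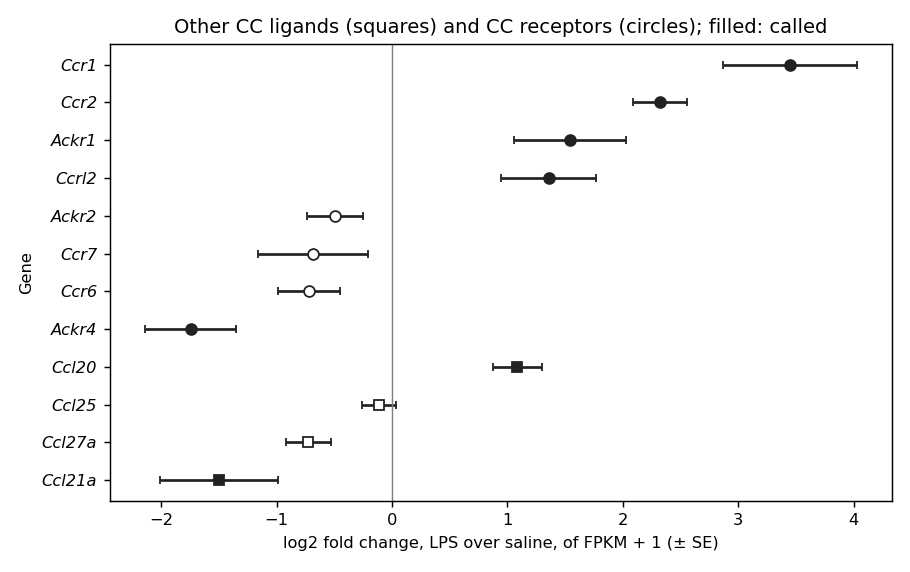
Log2 fold change of LPS over saline on the log2(FPKM + 1) scale, with SE bars, for the 4 other CC ligands (squares) and 8 CC receptors (circles) that passed the filter on low values. Filled symbols were called, and Ccr1 and Ccr2 lie farthest to the right.

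Of the remaining CC ligands, 14 symbols at 20 gene identifiers, 4 passed the filter, 1 rose and 1 fell. Ccl20, a ligand of Ccr6, had 1 read in the saline group and between 0.306 and 1.95 FPKM after LPS (184 reads), with a log2 fold change of 1.08 ± 0.21 and an adjusted p of 0.0015. Without LPS replicate 2 its log2 fold change was 0.99, just under the limit. Ccl21a, a homeostatic ligand of Ccr7, fell by 1.50 ± 0.51 (adjusted p = 0.0279) at the copy annotated on the unplaced scaffold JH584294.1. The Ccl21 genes are near-identical copies that can share reads, so this value is uncertain, and saline replicate 4 held 176 of its 273 saline reads. The call was lost without saline replicate 2, 3 or 4 or LPS replicate 1 (adjusted p from 0.0540 to 0.0690), and without saline replicate 4 the log2 fold change was -0.91. Ccl27a, the most abundant of those not called, was at 1.79 ± 0.339 FPKM in saline and 0.726 ± 0.462 FPKM after LPS, with a log2 fold change of -0.72 ± 0.19 and an adjusted p of 0.00897, short of the limit on the fold.

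The other genes inside the clusters went different ways. Ccl11, an eotaxin that lies between Ccl7 and Ccl12, was at 0.0703 FPKM in saline and 0.0881 FPKM after LPS, with 6 and 10 reads. Cx3cl1, the membrane-bound chemokine fractalkine that lies between Ccl22 and Ccl17 at chr8:94772009-94782427, was at 29.9 ± 8.13 FPKM (SD, n = 4) in saline and 11.6 ± 3.59 FPKM (SD, n = 6) after LPS, and fell by 1.31 on the log2 scale (adjusted p = 0.00207). Scaled on the endothelial list its log2 fold change was -0.58. In the second cluster on chromosome 11 the non-member genes were E230016K23Rik, at 0.110 FPKM in saline and 0.807 FPKM after LPS, and Rpl9-ps1, annotated as protein-coding, at 0 and 0.0516 FPKM. E230016K23Rik rose by 0.66 on the log2 scale (adjusted p = 0.0149 in limma), short of the limit on the fold. It overlaps Ccl6 on the other strand, and whether the 2 share reads was not tested. These neighbours were taken up after the values were seen.

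The second experiment was made to look for genes downstream of endothelial Fgfr1 in the injured lung, and compared cko with wt after LPS at 2 mg/kg. Fgfr1, the targeted gene, was at 2.90, 2.91 and 2.60 FPKM in wt replicates 1 to 3 and at 0.682, 1.41 and 1.15 FPKM in cko replicates 1 to 3. All cko libraries lay below all wt libraries, in the direction of the labels. The log2 fold change was -0.88 ± 0.16 (SE) with an adjusted p of 0.962 in limma, and the exact permutation test gave p = 0.1, the smallest that 3 against 3 libraries allow.

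None of the 10 ligands passed the test between cko and wt, and none of the 14945 genes tested did (0.0% by limma, with a smallest adjusted p of 0.742, and 0 by limma-voom on recovered reads), with 661 genes (4.42%) at an unadjusted p under 0.05, where chance alone gives 5%. With same-numbered libraries as pairs (the replicate block) 1154 genes (7.72%) had such a p, and again none was called (smallest adjusted p = 0.306). For all 10 ligands the libraries of the 2 genotypes overlapped. They did not overlap for 10.1% of all genes tested, where chance alone separates 3 against 3 libraries at a rate of 0.1. Nothing is therefore read from the overlap of all 10. Log2 fold changes lay between -0.80 for Ccl4 and 0.09 for Ccl2, with a median of -0.17 over the 10 and 0.01 over all genes. The adjusted p-values were all at or above 0.962, with standard errors of the log2 fold changes from 0.24 to 0.60.

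Ccl4 had the largest difference of the 10. It was at 93.5, 123 and 211 FPKM in wt replicates 1 to 3 and at 48.4, 67.8 and 137 FPKM in cko replicates 1 to 3. The log2 fold change was -0.80 ± 0.44 (SE), with an exact permutation p of 0.3. Ccl3 was at 296, 349 and 821 FPKM in wt and 146, 292 and 458 FPKM in cko, a log2 fold change of -0.70 ± 0.53 (exact permutation p = 0.4). Ccl22 was at 8.88, 11.9 and 6.60 FPKM in wt and 4.62, 7.91 and 6.10 FPKM in cko, a log2 fold change of -0.48 ± 0.24 (exact permutation p = 0.2). With 1 library left out, the log2 fold change ran from -1.22 to -0.48 for Ccl4 and from -1.08 to -0.25 for Ccl3. For Ccl22 it ran from -0.67 to -0.29.

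These 3 ligands were lower in cko in all 3 pairs of libraries with the same number, as were 12.9% of all genes tested. The SE and exact permutation p-values given above for these 3 do not use the pairs. With the replicate number as a block, the SE in limma was 0.20 for Ccl3, 0.12 for Ccl4 and 0.16 for Ccl22. Their unadjusted p-values were then 0.018, 0.0013 and 0.032, and 7.72% of all genes had one under 0.05. The adjusted p-values in this blocked limma test were 0.593 for Ccl3, 0.476 for Ccl4 and 0.622 for Ccl22. The other 7 ligands were lower in 1 or 2 of the 3 pairs.

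For the MCP genes the means of the genotypes lay close together beside a wide spread. Ccl2 was at 27.3, 36.7 and 17.9 FPKM in wt and 15.0, 46.1 and 31.6 FPKM in cko (log2 fold change 0.09 ± 0.43). Ccl7 had a mean of 13.9 ± 4.09 FPKM in wt and 14.6 ± 7.54 FPKM in cko, and Ccl12 11.2 ± 3.37 and 11.7 ± 6.68 FPKM (SD, n = 3 each). For each of the 3, cko replicate 1 was the lowest library and cko replicate 2 the highest of all 6, and the sign of the log2 fold change turned when 1 library was left out.

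Ccl6, Ccl9, Ccl17 and Ccl5 lay between those groups. Ccl6 was at 105 ± 67.5 FPKM in wt and 93.3 ± 48.1 FPKM in cko, and Ccl9 at 31.7 ± 14.9 and 29.4 ± 13.3 FPKM (SD, n = 3 each). Ccl17 was at 25.8 ± 11.8 and 23.8 ± 12.4 FPKM, and Ccl5 at 71.1 ± 27.7 and 57.9 ± 18.9 FPKM (SD, n = 3 each). Of these 4 genes Ccl5 had the largest log2 fold change, -0.26 ± 0.36 (SE). Every one of these differences was smaller than the SD within either genotype. With 1 library left out, the sign of the log2 fold change turned for Ccl6, Ccl9 and Ccl17. That of Ccl5 ran from -0.61 to -0.01.

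**Figure D5:**
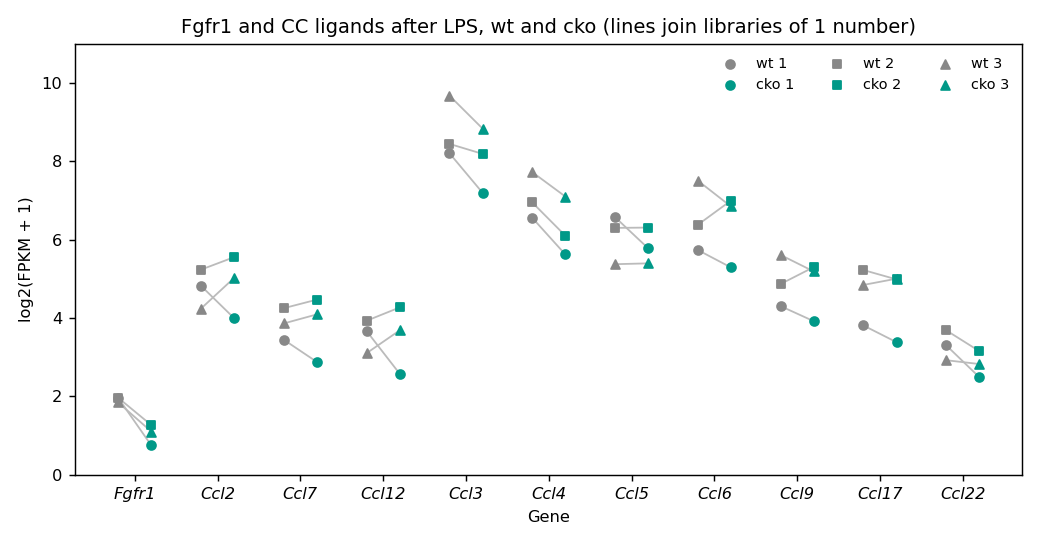
Level as log2(FPKM + 1) of Fgfr1 and the 10 CC ligands in the 3 wt (gray) and 3 cko (green) libraries, with the shape giving the replicate number and lines joining equal numbers. The lines fall in all 3 pairs for Fgfr1, Ccl3, Ccl4 and Ccl22 and run in both directions for the other ligands.

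Markers of other cells varied among these 6 libraries too. The summed level of the 10 ligands was 626, 778 and 1375 FPKM in wt replicates 1 to 3 and 341, 728 and 882 FPKM in cko replicates 1 to 3. The neutrophil list summed to 1167, 2558 and 2576 FPKM in wt and to 751, 2455 and 1523 FPKM in cko, and the monocyte and macrophage list to 1147, 1812 and 2756 and to 888, 1928 and 1726 FPKM. The epithelial list had the lowest ratio of cko to wt of all lists, 0.438, and summed to 825, 1498 and 2649 FPKM in wt and to 421, 978 and 777 FPKM in cko. All 8 epithelial markers had a log2 fold change below 0, with a median of -0.69, and none was called. Also below 0 were all 6 leukocyte, all 8 neutrophil and all 8 T, NK and B cell markers. So were 7 of 8 monocyte and macrophage markers and 9 of the 10 ligands. Among these ligands Ccl7 (-0.04) and Ccl12 (-0.06) were close to 0. The sign of Ccl6, Ccl7, Ccl9, Ccl12 and Ccl17 turned when 1 library was left out. Above 0 were 9 of 10 endothelial and 3 of 4 dendritic cell markers, and fibroblast and mural markers went both ways. No marker of any list was called. Library 1 of each genotype was the lowest for the neutrophil, monocyte and macrophage, and epithelial lists and for the ligands. The highest library for all 4 sums was wt replicate 3. Ptprc was at 18.0 ± 4.74 FPKM in wt and 15.2 ± 5.99 FPKM in cko, Csf1r at 67.7 ± 12.8 and 71.7 ± 35.6, and the endothelial gene Cdh5 at 385 ± 69.5 and 545 ± 94.4 FPKM (SD, n = 3 each). The part of these cells in the ligand levels was not tested.

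The order of the ligands at 2 mg/kg differed in a few places from that at 10 mg/kg, in tables that were normalized separately and mice of other genotypes. In wt the order of mean level was Ccl3, Ccl4, Ccl6, Ccl5, Ccl9, Ccl2, Ccl17, Ccl7, Ccl12 and Ccl22. Ccl17 was at 25.8 ± 11.8 FPKM (SD, n = 3) in wt and at 9.49 ± 3.84 FPKM (SD, n = 6) in the LPS group, and Ccl22 at 9.12 ± 2.65 and 2.12 ± 1.19 FPKM. Ccl6 was at 105 FPKM in wt and 285 FPKM in the LPS group, and Ccl2 at 27.3 and 52.7 FPKM. These values stand side by side only, because dose, genotype, tamoxifen and table all differ, and the difference was not tested.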

How the data were processed

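Pulmonary ECs were depleted of CD45+ cells and selected on CD31 with beads, and total RNA was sequenced. Per the labels and methods, reads were aligned to GRCm38 (mm10) with HISAT2 2.0.5 and counted per gene with featureCounts 1.5.0-p3; use of strand is not given in the sources used here. The authors deposited FPKM values, in 2 tables of 54532 genes that were normalized separately. With the gene lengths in the tables, 100.0% of values came out as whole reads (tolerance 0.05). The members, lists and tests were chosen with earlier results of these data known. Within each table FPKM were scaled by median-of-ratios factors (which left the first table as deposited), genes with a mean under 0.5 FPKM were removed, and log2(FPKM + 1) was compared with limma 3.58.1 (R 4.3.3, trend) and Benjamini-Hochberg adjustment over all genes; fold changes on this scale understate those of low genes. The limits for a call were 0.05 on the adjusted p and 1, up or down, on the log2 fold change. Because the values are FPKM, count models of the study's own kind were not the main test. Fgfr1 and the 10 ligands in cko and wt also had two-sided exact permutation tests (Python 3.11.15, scipy 1.17.1). Ratios of reads have exact 95% intervals that cover counting error only.

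Deviations of same-numbered wt and cko libraries from their group means correlated over genes at 0.247, 0.178 and 0.187, each above 0.1, so these numbers were taken as pairs; that pairing comes from the data and not from the labels. Named genes were the 10 ligands, every other CC ligand or receptor called and the most abundant not called. Ccr1, Ccr2, Ccr4, Ackr1, Ackr2, Pecam1, Cdh5, Ptprc, Csf1r, Flt3 and Fgfr1 were also named, with the most abundant gene of each of 9 marker lists. Tek, Tie1, Kdr and Flt1 were named as endothelial markers called, and Ccl11, Cx3cl1, E230016K23Rik and Rpl9-ps1 as neighbours inside the clusters. Alternatives were a pseudocount of 0.1, no filter, quantile normalization, scaling on the endothelial markers, limma-voom on recovered reads, the replicate block and each library left out. Promoters were read from RefSeq; protein sequences were not used here. A gene of the receptor list is not reported here and was left out of its counts and sums.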

Additional observations from a re-analysis of the deposited data

Results flagged for a closer look

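In 44 sets of values (10 ligands and 12 lists in the saline and the LPS group) 7 had a library whose gap to its nearest neighbour took up more of the group's range than Dixon's 95% limit, where chance gives about 1 in 20, or 2.2. Saline replicate 1 stood apart for Ccl3 at 9.77 FPKM (nearest 2.78), for Ccl5 at 29.9 FPKM (nearest 7.01), for Ccl9 at 13.6 FPKM (nearest 1.73) and for the summed CC receptors at 143 FPKM (nearest 106). LPS replicate 2 stood apart for Ccl5 at 149 FPKM (nearest 64.1). Ccl7 in saline replicate 4 (0.254 FPKM) and Ccl12 in saline replicate 2 (0.0842 FPKM) rest on 4 reads and 1 read. All other saline libraries were at 0 for these genes, where any read fills the whole range, so both were fixed to pass. The sets share libraries and are not independent, so the count of 7 was not tested against 2.2.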

How the results depend on the processing

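Leaving out any 1 library kept the calls of LPS over saline between 1641 and 1947 genes higher and between 910 and 1107 lower, the receptors called higher at 3 to 4 and called lower at 1 to 2, and the other CC ligands called at 0 to 1 in each direction. The median difference of the 10 ligands stayed between 4.17 and 4.62, and the number of ligands whose groups did not overlap between 9 and 10. That count and the ratios of mean FPKM without 1 library were added after seeing the data. Other settings moved more. Scaling on the endothelial list gave 4642 genes higher and 184 lower and 0 other CC ligands lower, by its construction a shift of all genes. A pseudocount of 0.1 FPKM gave 1840 genes lower, 2 other CC ligands lower, 2 receptors lower and a ligand median of 5.69, and limma-voom on recovered reads gave 2672 lower, 2 other CC ligands lower, 2 receptors lower and a ligand median of 5.62, and the cause was not tested. With no filter 0 other CC ligands were lower (Ccl21a adjusted p = 0.0746), and the cause was not tested. In the first experiment same-numbered libraries did not vary together (correlations from -0.209 to 0.0972), and a replicate block over the 4 shared numbers called 1926 genes higher, 1064 lower and 0 other CC ligands higher. Between cko and wt 0 genes were called in all 12 alternatives, and the block, under which 1154 genes had an unadjusted p under 0.05, changed no call. Fgfr1 lay between -1.50 and -0.74 throughout. With 1 library left out, the median log2 fold change of the ligands ran from -0.46 to 0.34. The sign then turned, without any call, for Ccl2 (range -0.26 to 0.52, and -0.14 under endothelial scaling), Ccl6 (-0.56 to 0.38), Ccl7 (-0.37 to 0.43), Ccl9 (-0.44 to 0.32), Ccl12 (-0.44 to 0.41) and Ccl17 (-0.58 to 0.37), and the cause was not tested. Depth limits the saline values of Ccl2, Ccl7 and Ccl12, at 10, 4 and 1 reads.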
